A study of Mus musculus with 6 samples.

Results

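The replication-dependent histone genes of the newborn mouse epidermis were read out of a comparison of sorted epidermal progenitors with and without Eed. They were taken as every gene symbol in the deposited count files that begins with Hist1h, Hist2h, Hist3h or Hist4h, the older mouse names of the clustered histone genes, which gave 69 genes of 24453 symbols. By type they were 6 H1, 19 H2A, 19 H2B, 12 H3 and 13 H4 genes. In GENCODE M21 (build GRCm38), 55 lay on chromosome 13, 10 on chromosome 3, 3 on chromosome 11 and 1 on chromosome 6. On chromosome 13, 54 of the 55 lay in chr13:21715763-23934851, and Hist1h2al, which GENCODE annotates as a processed pseudogene, lay apart at chr13:51202727-51203065. Hist3h2bb-ps, counted with the H2B genes, is annotated as a processed pseudogene too. The rule used gene symbols and no measured value, but it was set with earlier results of these data known.

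Nucleosomes are built from the core histones H2A, H2B, H3 and H4, and the linker histone H1 binds the DNA between them. The replication-dependent copies are transcribed in S phase, when new DNA has to be packaged, and their mRNAs end in a conserved stem-loop instead of a poly(A) tail. The stem-loop binding protein Slbp and the U7 particle, with its subunits Lsm10 and Lsm11, take part in cutting the transcript just after the stem-loop. Npat and Casp8ap2 (FLASH) act at the histone locus bodies where these genes are transcribed and processed. In the epidermis, basal progenitors divide and suprabasal cells leave the cell cycle as they differentiate. Eed is a core subunit of Polycomb repressive complex 2, which methylates histone H3.

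The groups were 3 Eed cKO libraries (genotype given as Eed-/-, a conditional knockout by title) and 3 Control libraries, all from the back skin of mice at postnatal day 0. Cells had been sorted for EpCAM, Sca1 and high α6-integrin to take interfollicular epidermis enriched in progenitors. Total RNA was amplified with a kit that primes along the transcript as well as at the poly(A) tail, which matters for mRNAs without a tail, and was sequenced as single reads of 100 bases. Not given in the sources used here are the Cre driver, the deleted exons, the full genotype of the controls and whether each library was a separate animal. The p-values therefore measure only the spread between these libraries. Libraries held 20998149 to 27447679 counts in Eed cKO and 25481306 to 29998531 in Control. Eed itself was at 37.0, 33.7 and 29.2 CPM (counts per 1000000 counts of the library) in Eed cKO, against 45.1, 41.1 and 53.1 CPM in Control. The ranges did not overlap, but the log2 fold change of -0.48 ± 0.19 (SE) gave an adjusted p of 0.252 (edgeR), and counts over the whole gene need not show a deletion of some exons. Of the 8 basal keratinocyte genes listed, 7 were not called, among them the keratin genes Krt5 and Krt14 and, with every Eed cKO library below every Control library, Trp63 and Col17a1 (log2 fold changes -0.37 and -0.38). The other, Epcam, whose protein was used in the sort, rose (119.8, 151 and 148 CPM in Eed cKO, against 64.5, 104 and 77.4 CPM in Control, adjusted p 0.0433, edgeR). T cell markers summed to at most 0.241 CPM in Eed cKO and 0.786 CPM in Control. All CPM values are scaled by the trimmed mean of M values (TMM), and a gene is said to rise or fall only at an adjusted p under 0.05.

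The stem-loop sets these mRNAs apart from other mRNAs, so it is printed here with 7 flanking bases on each side from the GENCODE M21 transcripts, 5′ to 3′, with the 16 bases of the stem-loop in capitals, for 1 member of each type and for H2afx, a histone variant gene on chromosome 9.
Hist1h1e: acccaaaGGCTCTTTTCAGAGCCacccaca
Hist1h2ab: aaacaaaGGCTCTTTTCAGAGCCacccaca
Hist1h2bm: acacaaaGGCTCTTTTCAGAGCCactaagc
Hist1h3e: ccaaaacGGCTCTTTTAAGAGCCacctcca
Hist1h4d: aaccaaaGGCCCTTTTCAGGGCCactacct
H2afx: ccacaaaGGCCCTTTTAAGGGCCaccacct

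A stem-loop was found 22 to 59 bases after the stop codon (median 32) in 46 of the 69 genes: 4 of 6 H1, 11 of 19 H2A, 10 of 19 H2B, 9 of 12 H3 and 12 of 13 H4 genes. No match says only that the letters are not in the annotated transcript, and many of the other models stop at or near the coding end. The 46 genes held 8 distinct forms. In H1, H2A, H2B and H3 genes the stem was GGCTC paired with GAGCC in all 34 found, and 26 of these shared the form printed for Hist1h1e. The H4 genes had GGCCC paired with GGGCC in 10 and GGTCC paired with GGACC in 2.

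The promoters also differed by type. Stretches from 130 to 10 bases before the RefSeq start (GRCm38.p6, gene strand) are printed for the 4 most abundant H1 genes and for Hist1h4d, the most abundant H4 gene, since they include Hist1h1e, Hist1h4d and Hist1h1b, the members with the highest counts. Capitals mark TATAAA, then CCAAT read on either strand, then AAACACA.
Hist1h1b (minus strand, chr13:21780635-21780755): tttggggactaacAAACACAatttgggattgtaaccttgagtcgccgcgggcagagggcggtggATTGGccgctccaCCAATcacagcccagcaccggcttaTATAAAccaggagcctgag
Hist1h1e (minus strand, chr13:23622568-23622688): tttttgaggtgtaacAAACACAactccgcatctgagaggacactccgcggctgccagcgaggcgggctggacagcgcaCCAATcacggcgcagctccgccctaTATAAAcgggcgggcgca
Hist1h1d (plus strand, chr13:23554902-23555022): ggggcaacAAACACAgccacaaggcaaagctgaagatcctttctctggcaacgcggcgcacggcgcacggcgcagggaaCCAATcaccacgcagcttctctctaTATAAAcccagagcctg
Hist1h1c (plus strand, chr13:23738677-23738797): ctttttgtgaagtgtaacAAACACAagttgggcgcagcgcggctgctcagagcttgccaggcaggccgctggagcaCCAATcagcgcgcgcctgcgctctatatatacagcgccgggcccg
Hist1h4d (plus strand, chr13:23581438-23581558): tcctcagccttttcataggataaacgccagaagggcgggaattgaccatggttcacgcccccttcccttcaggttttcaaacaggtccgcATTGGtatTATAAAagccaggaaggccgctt

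In the H1 promoters AAACACA began 112 to 122 bases before the start, and CCAAT 51 to 54 bases before it. TATAAA, the TATA box, began 26 to 28 bases before the start of Hist1h1b, Hist1h1e and Hist1h1d and was not found in the window of Hist1h1c. RefSeq promoters (250 bases before to 50 after the start, both strands searched) were at hand for 62 of the 69 genes. CCAAT was in 100% of the H1, H2A, H2B and H3 promoters and in 25% of the 12 H4 promoters, against 37.9% of all 27025 promoters. TATAAA was anywhere in these windows in 56.5% of the histone promoters, against 14.2% of all. Not every match lies at the place of a TATA box: in Hist1h4f it began 250 bases before the start. AAACACA was in 5 of 6 H1 promoters and in 14.5% of all histone promoters, against 7.14% of all promoters. The octamer ATTTGCAT was in 7 of 18 H2A and 6 of 16 H2B promoters and in no H1, H3 or H4 promoter, against 1.75% of all. H2A and H2B genes often stand head to head, so some of these windows share bases. A motif match is a description of the letters, not of a factor bound there.

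The histone cluster genes took 0.0315% to 0.0550% of all counts in Eed cKO and 0.0445% to 0.0534% in Control. Their summed level was 549.6, 318.8 and 344.9 CPM in Eed cKO, against 546.3, 427.0 and 461.6 CPM in Control. The first library of Eed cKO stood above its group and the groups overlapped. The mean was 404.4 ± 126 CPM in Eed cKO and 478.3 ± 61.3 CPM in Control (SD, n = 3 each). In bulk RNA, fewer cells in S phase and less histone mRNA per cell cannot be told apart.

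By type, H1 genes summed to 279 CPM, 155 CPM and 144 CPM in Eed cKO, against 235 CPM, 212 CPM and 239.8 CPM in Control, so that Eed cKO libraries 2 and 3 lay below all Control libraries and library 1 above them. H2B genes summed to 142 CPM, 93.0 CPM and 114 CPM in Eed cKO, against 169 CPM, 120.4 CPM and 141 CPM in Control. H4 genes summed to 77.3 CPM, 41.9 CPM and 56.7 CPM in Eed cKO, against 84.9 CPM, 58.3 CPM and 53.2 CPM in Control. The groups overlapped in both types. H2A sums ran between 18.5 and 34.0 CPM in Eed cKO and between 15.9 and 41.3 CPM in Control, and H3 sums between 9.92 and 17.5 CPM in Eed cKO and between 11.6 and 16.5 CPM in Control. The makeup by type was close in the groups: H1 held 47.1% ± 4.67 of the summed level in Eed cKO and 48.2% ± 4.64 in Control (SD, n = 3 each, as for the other types). H2B held 29.4% ± 3.70 in Eed cKO and 29.9% ± 1.47 in Control. H4 held 14.6% ± 1.71 in Eed cKO and 13.6% ± 2.01 in Control. H2A and H3, at 5.87% ± 0.279 and 3.07% ± 0.165 in Eed cKO against 5.35% ± 2.08 and 3.0% ± 0.488 in Control, held the least. These are shares of counts, in which longer mRNAs such as those of H1 weigh more, and not of molecules. In GENCODE, every H2A gene shares exonic bases with another gene, for example 138 of 393 in Hist1h2ak and 303 of 444 in Hist2h2ab. In the other types only Hist1h1e, Hist1h2be, Hist2h2bb, Hist2h3b, Hist2h3c1 and Hist1h4b do. Reads on shared bases could be split or dropped in counting, and so could reads that align to several near-identical genes. In H1 genes, 75.3% to 100% of the 100-base windows (the read length) were found in no other gene's transcripts. In H3 genes this share was 0% to 79.6%. The effect of either on the shares by type was not tested.

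**Figure D1:**
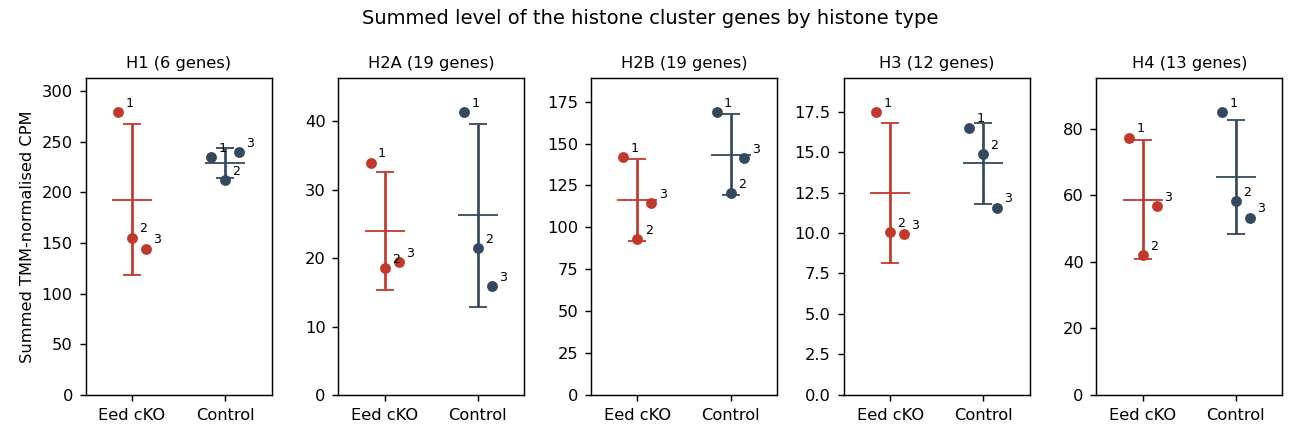
Summed TMM-normalised CPM of the histone cluster genes of each type (vertical axis, from 0) in the 3 Eed cKO and 3 Control libraries; points are libraries with their numbers, the long dash the mean and the bars the SD. Library 1 of Eed cKO is the highest of its group in every panel, and the groups overlap in every panel.

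Few genes carried this level. Hist1h1e held 30.0% of the summed mean CPM, Hist1h1e and Hist1h4d together 41.2%, the 5 highest genes 63.5% and the 10 highest 79.9%. Per kilobase of the RefSeq transcript, the mean level of Hist1h1e was 162.5 CPM per kb in Eed cKO and 176.5 CPM per kb in Control, and that of Hist1h4d 115 CPM per kb in Eed cKO and 131 CPM per kb in Control. Hist1h2bm, Hist1h2bl and Hist1h1b followed with 41.0 to 51.6 CPM per kb in Eed cKO and 62.3 to 69.5 CPM per kb in Control. The order depends on the length taken, and the GENCODE exon runs past the stem-loop in some models. Per kilobase of GENCODE exon, Hist1h1e stood at 65.8 CPM per kb in Eed cKO and 71.5 CPM per kb in Control. Hist1h2bl stood at 61.8 CPM per kb in Eed cKO and 80.1 CPM per kb in Control. Hist1h4d, at 40.6 CPM per kb in Eed cKO and 46.3 CPM per kb in Control, then lay below Hist1h2bl, Hist1h2bm and Hist1h1b.

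Eed cKO was then compared with Control gene by gene. Of the 69 genes, 42 passed the filter on low counts: 5 H1, 8 H2A, 15 H2B, 8 H3 and 6 H4 genes. Over all 14700 genes tested, 3.39% were called higher and 0.816% lower in Eed cKO. None of the 42 histone cluster genes was called in either direction with edgeR, and DESeq2 called 1 lower (Hist1h1b). At an unadjusted p under 0.05, 2 of the 42 were lower (Hist1h1b and Hist2h2bb), against 6.24% of all genes. Log2 fold changes were negative for 32 and positive for 10 of the 42, which is 76.2% negative against 51.3% of all genes, with a median of -0.17 against -0.01 for all genes. In 4 genes, or 9.52%, every Eed cKO library lay below every Control library, against 9.22% of all genes. In none did every Eed cKO library lie above every Control library, against 11.0% of all genes.

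The size of the median depended on single libraries. Without the first Eed cKO library, 34 of 44 genes tested were negative with a median of -0.44. Without the first Control library, 23 of 43 were negative with a median of -0.04. Without the second Eed cKO library, the median was -0.08. Counts were also low: the median SE was 0.577 on the log2 scale, against 0.269 for all genes. The 95% interval lay above a 2-fold fall for 12 of the 42 genes and within 2-fold in both directions for 8, so that changes of 2-fold were not excluded for most.

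**Figure D2:**
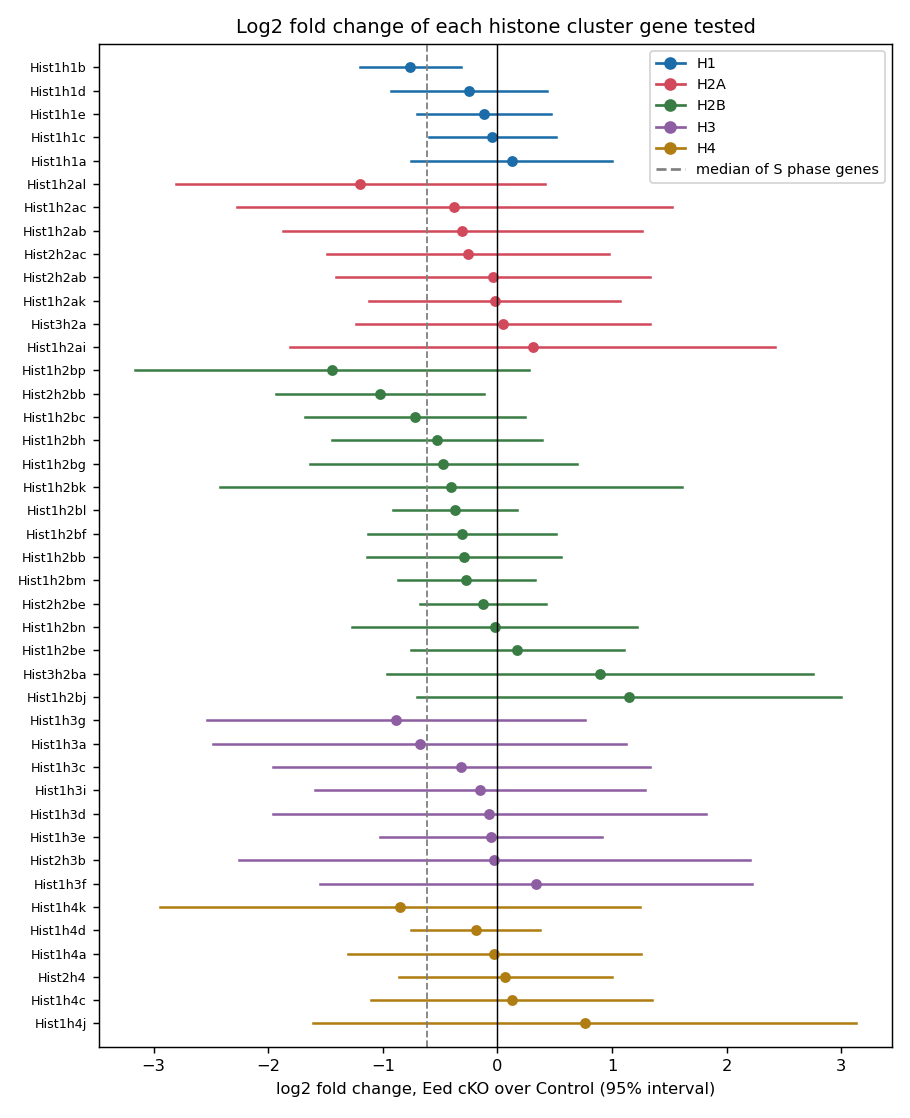
Log2 fold change of Eed cKO over Control (horizontal axis) with its 95% interval for each of the 42 histone cluster genes tested, coloured by type; the solid line is 0 and the dashed line the median of the S phase genes, -0.61. The intervals of 40 genes hold 0, and those of Hist1h1b and Hist2h2bb lie below it.

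Among the H1 genes, which code for linker histones, 4 of 5 log2 fold changes were negative (median -0.12). Hist1h1b was at 38.4, 27.8 and 31.6 CPM in Eed cKO, against 44.9, 63.0 and 57.7 CPM in Control. Every Eed cKO library was below every Control library, with means of 32.6 ± 5.35 CPM in Eed cKO and 55.2 ± 9.29 CPM in Control (SD, n = 3 each). The log2 fold change was -0.76 ± 0.21 (SE), with an adjusted p of 0.0548 (edgeR), which missed the threshold. The threshold was also missed with RLE scaling (adjusted p 0.0584, edgeR), upper-quartile scaling (0.0627, edgeR) and a filter of 1 CPM in 3 libraries (0.0537, edgeR). It was missed as well with limma-voom (0.0558), and with Rn45s (0.0604, edgeR) or the histone genes (0.0546, edgeR) left out of library sizes. The gene was called lower with no filter on low counts (adjusted p 0.0155 with edgeR, where 1.31% of genes were called lower) and by DESeq2 (adjusted p 0.0132, where 1.84% were). It was also called by edgeR without the first Eed cKO library (adjusted p 0.0416, background 0.785%), without the first Control library (adjusted p 0.0353, background 0.570%) and without both (log2 fold change -1.02, adjusted p 0.0166, background 0.728%). Leaving out any other library took its adjusted p to between 0.181 and 0.227. All its 100-base windows were found in no other gene's transcripts.

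The most abundant member, Hist1h1e, did not follow that pattern. It was at 202 CPM, 94.1 CPM and 85.1 CPM in Eed cKO, against 153 CPM, 114 CPM and 147 CPM in Control. The first Eed cKO library was the highest of all, and the other Eed cKO libraries were the lowest. The log2 fold change was -0.12 ± 0.27 (SE; adjusted p 0.915, edgeR), and it was -0.62 without that library. In GENCODE, 496 of the 1930 exonic bases of Hist1h1e overlap Gm11398 or Hist1h2be, so its reads could be split or dropped in counting. Hist1h1c was at 26.0 CPM, 15.9 CPM and 14.2 CPM in Eed cKO, against 20.3 CPM, 17.9 CPM and 19.7 CPM in Control, and its 95% interval of -0.60 to 0.51 was the one interval that lay above the median of the S phase genes given below. Hist1h1d and Hist1h1a had log2 fold changes of -0.25 ± 0.32 and 0.13 ± 0.41 (SE), with overlapping groups.

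**Figure D3:**
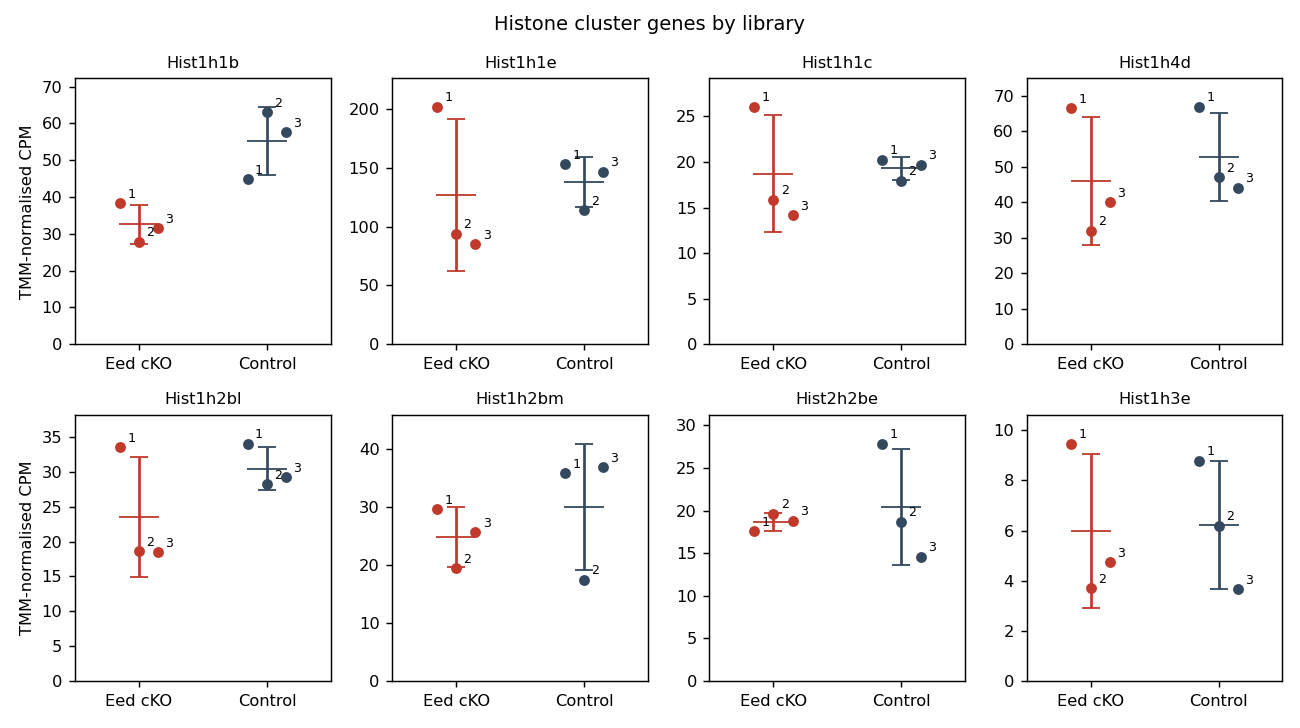
TMM-normalised CPM (vertical axes, each from 0) of 8 histone cluster genes in the 3 Eed cKO and 3 Control libraries; points are libraries with their numbers, the long dash the mean and the bars the SD. Hist1h1b is the one gene of the 8 with no overlap between groups, and library 1 is the highest of its group in both groups for Hist1h1e, Hist1h1c, Hist1h4d, Hist1h2bl and Hist1h3e.

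Of the H2B genes, 12 of 15 were negative, with the lowest median of the types, -0.31. The highest by mean CPM, Hist1h2bm, was at 29.7 CPM, 19.4 CPM and 25.7 CPM in Eed cKO, against 35.9 CPM, 17.5 CPM and 36.9 CPM in Control. Hist1h2bl was at 33.6 CPM, 18.6 CPM and 18.5 CPM in Eed cKO, against 34.1 CPM, 28.2 CPM and 29.2 CPM in Control. The groups overlapped for both, with log2 fold changes of -0.27 ± 0.28 and -0.37 ± 0.25 (SE). Hist2h2be, on chromosome 3, was at 17.6 CPM, 19.6 CPM and 18.8 CPM in Eed cKO, against 27.9 CPM, 18.7 CPM and 14.6 CPM in Control, and overlapped as well. Hist1h2be and Hist1h2bf had log2 fold changes of 0.17 ± 0.43 and -0.31 ± 0.38 (SE). The largest estimates were those of Hist1h2bp at -1.44 ± 0.80 and Hist1h2bj at 1.15 ± 0.86 (SE), neither called. The counts of Hist1h2bp ran from 9 to 64 in Eed cKO libraries and from 19 to 168 in Control libraries. Hist1h2bj had 122 counts over the 6 libraries.

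Hist2h2bb and Hist1h2bh, named after their values were seen, were the H2B genes whose groups did not overlap. Hist2h2bb was at 5.94 CPM, 2.77 CPM and 2.81 CPM in Eed cKO, against 6.17 CPM, 10.2 CPM and 7.11 CPM in Control (log2 fold change -1.02 ± 0.42 SE, adjusted p 0.262, edgeR). In GENCODE it lies wholly within exons of Gm20628, so that none of its windows is its own, and its count depends on how shared reads were treated. Hist1h2bh was at 4.77 CPM, 3.17 CPM and 2.66 CPM in Eed cKO, against 4.83 CPM, 4.98 CPM and 5.51 CPM in Control, a gap of less than 0.1 CPM between the nearest libraries.

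The H2A genes had a median log2 fold change of -0.15, with 6 of 8 negative and no gene with separate ranges. Hist1h2ak was at 22.2 CPM, 8.95 CPM and 5.28 CPM in Eed cKO, against 22.2 CPM, 8.69 CPM and 6.25 CPM in Control. In both groups the first library was at least 2-fold above the other libraries, and the log2 fold change was -0.03 ± 0.51 (SE). Hist2h2ac, Hist2h2ab and Hist3h2a averaged 3.89 ± 0.697, 2.33 ± 1.47 and 1.94 ± 0.326 CPM in Eed cKO, against 4.64 ± 3.65, 2.39 ± 0.832 and 1.87 ± 0.401 CPM in Control (SD, n = 3 each). The extremes of the type were Hist1h2al at -1.20 ± 0.75 and Hist1h2ai at 0.31 ± 0.99 (SE), neither called.

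The H3 genes had low counts throughout, and how reads shared with near-identical genes were treated is unknown here. Their median log2 fold change was -0.11, with 7 of 8 negative. Hist1h3e, the highest, was at 9.47 CPM, 3.69 CPM and 4.74 CPM in Eed cKO, against 8.79 CPM, 6.20 CPM and 3.67 CPM in Control. The others of the 5 highest, Hist1h3i, Hist1h3g, Hist1h3c and Hist1h3d, averaged 0.983 to 1.49 CPM in Eed cKO and 1.03 to 1.90 CPM in Control. The extremes were Hist1h3g at -0.89 ± 0.77 and Hist1h3f at 0.34 ± 0.88 (SE). Hist1h3a, named after its values were seen, was the H3 gene with separate ranges, at 0.437, 0.602 and 0.484 CPM in Eed cKO against 0.860, 0.959 and 0.625 CPM in Control (log2 fold change -0.68 ± 0.84 SE).

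The H4 genes were balanced in sign, 3 negative and 3 positive, with a median of 0.02. Hist1h4d was at 66.5 CPM, 32.0 CPM and 40.0 CPM in Eed cKO, against 66.9 CPM, 47.1 CPM and 44.2 CPM in Control. The first library was the highest of each group, and the log2 fold change was -0.19 ± 0.26 (SE; adjusted p 0.834, edgeR). Hist2h4, Hist1h4c and Hist1h4a lay at 0.07 ± 0.43, 0.12 ± 0.57 and -0.03 ± 0.60 (SE), and the extremes Hist1h4k and Hist1h4j at -0.85 ± 0.98 and 0.76 ± 1.11 (SE). Over all types, the first library was the highest of the Eed cKO group for 23 of the 42 genes tested and the highest of the Control group for 21. These counts were not set beside those of all genes, so they do not show a trait of the histone genes.

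The 27 genes that were not tested held little: 11 had no count in any library, and the other 16 had totals of at most 56 counts over the 6 libraries (median 21), together 0.545% of the 69942 histone cluster counts. A count of 0 in a library allows a level of up to 0.109 to 0.145 CPM in Eed cKO libraries and 0.0959 to 0.117 CPM in Control libraries (3 counts, counting error only). Most of the genes without counts share sequence with other genes. The share of 100-base windows, the read length, found in no other gene's GENCODE transcripts had a median of 7.83% in the 11 genes without counts (range 0% to 89.7%), 39.9% in the 16 with few counts and 70.9% in the 42 tested. Hist2h2aa1, Hist2h2aa2 and Hist2h3c1 had no window of their own. At the other end, Hist1h2aa and Hist1h2ba, which code for testis histones, had 89.7% and 72.6% of their windows to themselves and still no count. The handling of reads with several alignments and the annotation used are unknown here. A gene at 0 with shared sequence therefore cannot be told apart from one that is not expressed.

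**Figure D4:**
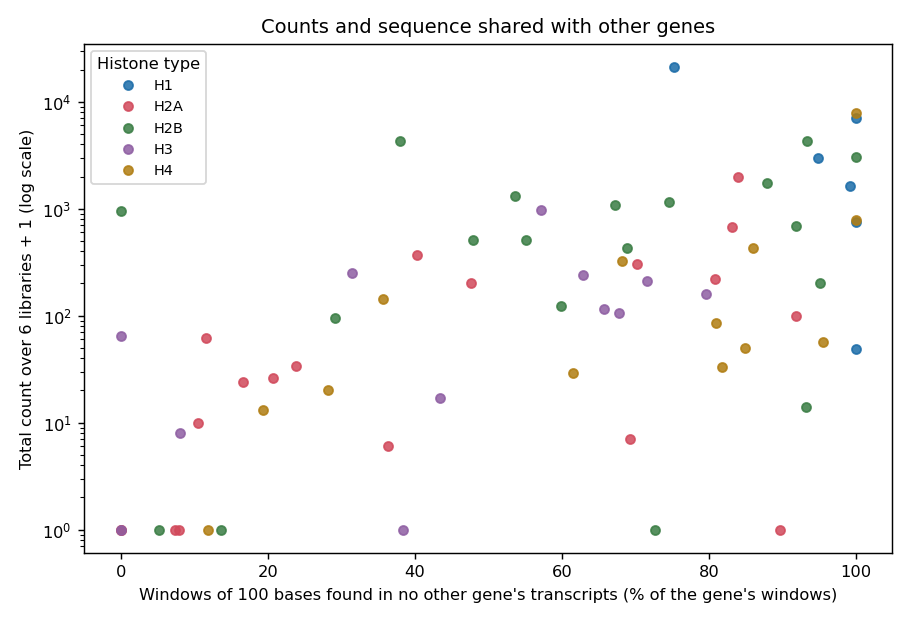
Total count over the 6 libraries plus 1 (vertical axis, log scale) of each of the 69 histone cluster genes against the share of its 100-base windows found in no other gene's transcripts (horizontal axis, %), coloured by type. Of the 11 genes without a count, along the bottom, 8 lie below 20%, while Hist1h4d and Hist1h1b, among the highest, lie at 100%. The highest, Hist1h1e, lies at 75.3% and Hist1h2bl, with 4309 counts, at 37.9%, and Hist1h1t at 100% has 48 counts.

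The genes that transcribe and process histone mRNA were set beside their targets, from a list of 23 of which 22 were tested. 2 fell, none rose and 20 were not called, with a median log2 fold change of -0.25. Over all genes tested, 0.816% were called lower. Slbp, which binds the stem-loop printed above, was at 23.1, 32.2 and 30.0 CPM in Eed cKO, against 59.8, 42.2 and 50.7 CPM in Control, with no overlap. Its log2 fold change was -0.84 ± 0.21 (SE; adjusted p 0.0373, edgeR). Casp8ap2, the FLASH protein of histone locus bodies, was at 110.0 CPM, 112 CPM and 111 CPM in Eed cKO, against 187 CPM, 149 CPM and 171 CPM in Control (log2 fold change -0.61 ± 0.16 SE, adjusted p 0.0455, edgeR). Neither call held up when libraries were left out: the adjusted p of Slbp was above 0.05 with any 1 library but Control 2 left out (up to 0.123), and that of Casp8ap2 with any 1 of the 6 left out (up to 0.160).

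Npat, the coactivator at histone locus bodies, was at 92.2 CPM, 80.8 CPM and 100.0 CPM in Eed cKO, against 139.9 CPM, 122 CPM and 119 CPM in Control, with separate ranges but an adjusted p of 0.144 (edgeR; log2 fold change -0.48 ± 0.17 SE). The U7 particle genes Lsm11 and Lsm10 had log2 fold changes of -0.41 ± 0.23 and -0.30 ± 0.51 (SE), not called. Genes for the CCAAT-binding factor, Nfya, Nfyb and Nfyc, and Pou2f1, which binds the octamer, were named for the promoter motifs above and had log2 fold changes of -0.12 to -0.29, none called.

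Replication-independent histone genes are not transcribed in S phase alone and often carry introns and poly(A) tails. The list held 18, of which 17 were in the files and 11 were tested. 1 fell, against 0.816% of all genes tested, none rose and 10 were not called (median log2 fold change -0.16). H2afz, which codes for the variant H2A.Z, was at 23.4, 21.2 and 22.3 CPM in Eed cKO, against 45.2, 43.3 and 35.7 CPM in Control. The groups were apart, with a log2 fold change of -0.89 ± 0.20 (SE; adjusted p 0.0185, edgeR), and the adjusted p was above 0.05 without Eed cKO 2, Eed cKO 3, Control 1 or Control 2 (up to 0.0860). H2afx, the variant phosphorylated at DNA breaks, whose stem-loop is printed above, was at 105 CPM, 58.2 CPM and 62.8 CPM in Eed cKO, against 141 CPM, 97.0 CPM and 124 CPM in Control, and overlapped (log2 fold change -0.68 ± 0.23 SE, adjusted p 0.143, edgeR). H3f3a and H3f3b, which code for the variant H3.3, and H1f0, a linker histone of differentiated cells, had log2 fold changes of -0.01 ± 0.18, 0.05 ± 0.27 and -0.16 ± 0.16 (SE).

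Histone chaperones, which escort histones to and from DNA, numbered 25, all tested and none called with edgeR. Their median log2 fold change was -0.19, and 7 of them were lower at an unadjusted p under 0.05, against the 6.24% of all genes given above.

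S phase genes, which work in the phase when the histone cluster genes are transcribed, were measured with smaller errors (median SE 0.214). All 35 were tested, 7 fell, 28 were not called and none rose, and all 35 log2 fold changes were negative, with a median of -0.61. Of all genes tested, 0.816% were called lower and 51.3% were negative. Those that fell were Slbp, which stands in both lists, the licensing genes Mcm6 and Cdt1, the thymidylate synthase gene Tyms, and Prim1, Pole and Lig1 of the replication fork. Their summed level was 1404 CPM, 2044 CPM and 1599 CPM in Eed cKO, against 2473 CPM, 2447 CPM and 2574 CPM in Control, with no overlap and with the first Eed cKO library lowest, where it was highest for the histone cluster genes. Pcna, the sliding clamp, was not called (log2 fold change -0.40 ± 0.22 SE, adjusted p 0.449, edgeR). The 95% intervals of 41 of the 42 histone cluster genes held the S phase median of -0.61 and those of 40 held 0, so that most genes could not be placed between these values at this depth. Whether the lists differed was not tested.

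Mitosis genes had the same sign as the S phase genes: 3 of 22 fell (Mki67, Top2a and Aurkb), against 0.816% of all genes tested. The other 19 were not called, and all 22 were negative, with a median of -0.55. Mki67, the proliferation marker Ki-67, was at 939 CPM, 857 CPM and 911 CPM in Eed cKO, against 1627 CPM, 1669 CPM and 1395 CPM in Control (log2 fold change -0.79 ± 0.15 SE, adjusted p 0.00765, edgeR).

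**Figure D5:**
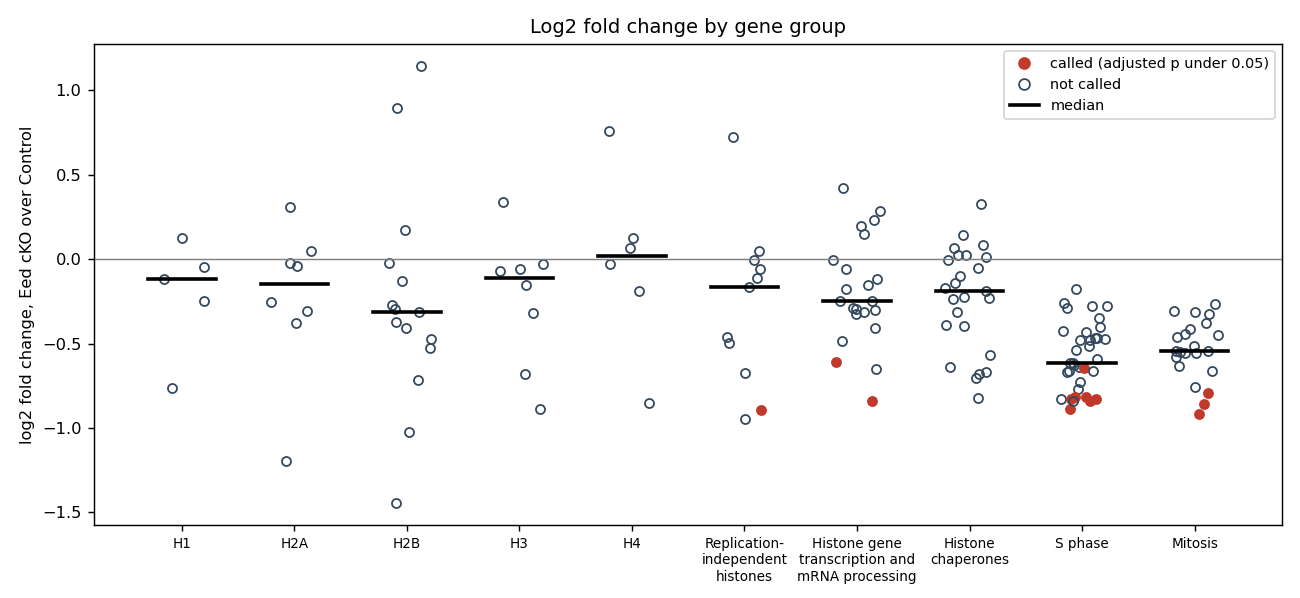
Log2 fold change of Eed cKO over Control (vertical axis) of each gene tested, by histone type and by the lists of related genes (horizontal axis); filled points were called, open points were not, and bars are medians. The histone types have no filled point and medians between -0.31 and 0.02, beside -0.61 for S phase and -0.55 for mitosis genes.

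Other measures moved with the groups or the libraries. The summed level of the suprabasal genes was 4143, 6706 and 7311 CPM in Eed cKO, against 2509, 3436 and 3318 CPM in Control; 1 of the 4 rose (Krt10) and all 4 were positive. The 5 macrophage and Langerhans genes summed to 276, 42.3 and 88.6 CPM in Eed cKO, against 370 CPM, 102 CPM and 167 CPM in Control, highest in the first library of each group, and 1 of the 4 tested fell (Cx3cr1). The 45S pre-ribosomal RNA, Rn45s, which has no poly(A) tail, was at 72601, 68644 and 69700 CPM in Eed cKO, against 53572, 20898 and 39291 CPM in Control (log2 fold change 0.89 ± 0.26 SE, adjusted p 0.0736, edgeR). Of the 6 RNAs without a poly(A) tail that were tested, 5 were positive and 1, Rmrp, rose (7.51, 3.41 and 4.79 CPM in Eed cKO, against 0.673, 1.31 and 1.41 CPM in Control, adjusted p 0.0371, edgeR), while Rnu73b was the negative one (-1.72, not called). The 4 Merkel cell markers summed to 2.48, 3.93 and 5.37 CPM in Eed cKO, against 0.337, 1.82 and 0.195 CPM in Control, with none of the 2 tested called. No tested gene of the melanocyte, fibroblast, endothelial or erythroid lists was called, where 3.39% of all genes tested were called higher and 0.816% lower. The part of these differences in the histone values was not tested; leaving Rn45s out of the library sizes left 0 histone cluster genes called and the median at -0.16.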

How the data were processed

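Gene counts of 3 Eed cKO and 3 Control libraries of sorted newborn mouse epidermis were used as deposited, 1 value per gene symbol. The deposited counts are whole numbers that the authors had not normalized. Build mm10, HTSeq 0.6.1, TopHat2 2.0.13, DESeq2 1.6.3 and Cufflinks 2.2.1 are named, per the submitters' processing notes, without their roles. Not given in the sources used here are the strand setting, the annotation and the treatment of reads with several alignments, so that antisense, overlapping and near-identical genes cannot be told apart. All genes passing filterByExpr (14700 of 24453) were fitted with edgeR 4.0.16 (TMM scaling, quasi-likelihood test, genotype only, Benjamini-Hochberg over all genes, R 4.3.3), and the histone genes were read out of that fit. The fit was tested on simulated counts. Fold changes put Eed cKO over Control, and SD is over libraries. Alternatives used RLE or upper-quartile scaling, no filter or 1 CPM in 3 libraries, DESeq2 1.42.0, limma-voom 3.58.1, a replicate block, each library or both libraries numbered 1 left out, and Rn45s or the histone genes left out of library sizes. With 3 libraries a group, a 2-sided exact permutation test cannot go below 0.1, so none is given. Transcript sequences were from GENCODE M21 (69 of 69 symbols matched) and promoters from RefSeq (62 matched); with no genome used here, sequence outside these tables was not searched. The members and lists were chosen with earlier results of these data known. Named were every called member, in each type the 5 members with the highest mean CPM and the largest positive and negative log2 fold change, and related genes that were called or fixed by name. No 2 libraries had identical values. Same-numbered libraries correlated at 0.23, 0.11 and -0.001 in their deviations from the group means, so the numbers were not taken as pairs.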

Additional observations from a re-analysis of the deposited data

How the results depend on the processing

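Hist1h1b was the 1 histone cluster gene called in any setting, lower each time; the count of histone cluster genes called lower was 0, and 1 with no filter, with DESeq2, with the replicate block (adjusted p 0.0319, edgeR) and without both libraries numbered 1, and 0 to 1 with each library left out. None was called higher in any of the 16 alternatives. Over all genes, 499 were called higher and 120 lower, against 764 and 270 with DESeq2. The lower count was 257 with no filter and 269 with the replicate block. With each library left out it was 35 to 118, and the higher count 302 to 456. The cause of these shifts was not tested.

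Histone cluster genes, and H3f3a and H3f3b among the replication-independent ones, changed sign where the estimate was small against its error, none of them called. With each library left out, log2 fold changes ran from -0.056 to 0.27 for Hist1h1a, -0.36 to 0.12 for Hist1h1c, -0.62 to 0.10 for Hist1h1e, -0.80 to 0.70 for Hist1h2ak, -0.18 to 0.71 for Hist1h2be, -0.63 to 0.18 for Hist1h3c, -0.62 to 0.43 for Hist1h3d, -0.56 to 0.27 for Hist1h3e, -0.30 to 0.15 for Hist1h3i, -0.21 to 0.25 for Hist1h4a, -0.36 to 0.40 for Hist1h4c, -0.55 to 0.025 for Hist1h4d, -0.25 to 1.80 for Hist1h4j, -1.48 to 0.46 for Hist1h4k, -0.59 to 0.36 for Hist2h2ab, -0.70 to 0.52 for Hist2h2ac, -0.32 to 0.16 for Hist2h2be, -0.12 to 0.48 for Hist2h4, -0.12 to 0.17 for Hist3h2a, -0.075 to 0.063 for H3f3a and -0.34 to 0.32 for H3f3b. Without both libraries numbered 1, signs turned for Hist1h3d (0.18), Hist1h4a (0.075), Hist1h4k (0.65), Hist2h2ab (0.078), Hist2h2ac (0.65), Hist2h2be (0.21) and Hist3h2a (-0.12). With limma-voom they turned for Hist1h2ak (0.012), Hist1h4a (0.005), Hist2h2ac (0.064), H3f3a (0.003) and H3f3b (-0.035), and with the replicate block for Hist2h2ac (0.062) and H3f3b (-0.025). H3f3a also turned with RLE scaling (0.001), upper-quartile scaling (0.009), the 1 CPM filter (0.000), DESeq2 (0.001) and without Rn45s (0.004). The labels do not say that replicate numbers pair the libraries, and the block changed the call of no other histone cluster gene.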
